A study of Mus musculus with 6 samples.

Results

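Cbfa2t3, Cbfa2t2 and Runx1t1 are the 3 mouse genes of the ETO family of transcriptional corepressors, also called the myeloid translocation genes, and they were picked by their symbols from 19938 genes measured in the mouse frontal cortex. They were chosen with results of the present comparison in view, so their differences between the groups are given as a description, without a test. Of the 3 genes, 2 had more than 1 probe set, and the 5 probe sets are all shown. The brightest by mean signal stands for the gene unless another is named. Wild-type 129S6/SvEv mice, 8 to 12 weeks old, were dosed for 21 days with either SAHA at 20 mg per kg by injection or its vehicle, and the cortex was taken 1 day later. SAHA (suberoylanilide hydroxamic acid, vorinostat) inhibits the zinc-dependent histone deacetylases. There were 3 libraries from SAHA mice and 3 from vehicle mice, which the titles call saline, each on 1 whole-transcript array. The labels do not say that every library came from a separate mouse, so errors and p-values measure variation among these 6 samples only, part or all of which may be technical.

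ETO proteins do not bind DNA by themselves. They are scaffolds that are brought to genes by DNA-binding factors such as the E proteins, Tal1 or Gfi1, and they in turn bring in the NCoR and Sin3 corepressors with class I histone deacetylases, the enzymes that SAHA inhibits. Runx1t1 (ETO, MTG8) is known from its fusion to Runx1 in acute myeloid leukaemia and is expressed in neurons. Cbfa2t3 (ETO2, MTG16) works in blood progenitors within the Tal1 and Gata1 complex. Cbfa2t2 (MTGR1) is expressed widely, is needed in the secretory lineage of the intestine, and partners Prdm14 in germ cells.

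The starts of Cbfa2t3 and Cbfa2t2 are printed because the E-box, the element read by the E proteins that recruit ETO proteins, can be looked for there. Each sequence is the 250 bases before a start of transcription in RefSeq on build GRCm38.p6, 5′ to 3′ on the strand of the gene, and capitals mark the E-box CAGCTG. The first 2 are alternative starts of Cbfa2t3 on the minus strand, at chr8:122699110-122699359 and chr8:122678176-122678425, and the last is Cbfa2t2 on the plus strand, at chr2:154436234-154436483.
Cbfa2t3 upstream start: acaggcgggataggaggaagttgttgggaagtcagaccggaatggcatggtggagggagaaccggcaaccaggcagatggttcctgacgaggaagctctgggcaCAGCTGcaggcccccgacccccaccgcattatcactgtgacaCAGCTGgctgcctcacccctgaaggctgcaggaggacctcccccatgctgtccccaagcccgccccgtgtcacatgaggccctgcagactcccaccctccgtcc
Cbfa2t3 downstream start: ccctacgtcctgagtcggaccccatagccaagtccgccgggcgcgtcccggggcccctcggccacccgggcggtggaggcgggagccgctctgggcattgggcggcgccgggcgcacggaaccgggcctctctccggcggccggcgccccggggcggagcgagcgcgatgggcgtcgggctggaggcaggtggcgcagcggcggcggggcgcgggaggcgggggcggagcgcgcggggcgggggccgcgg
Cbfa2t2 start: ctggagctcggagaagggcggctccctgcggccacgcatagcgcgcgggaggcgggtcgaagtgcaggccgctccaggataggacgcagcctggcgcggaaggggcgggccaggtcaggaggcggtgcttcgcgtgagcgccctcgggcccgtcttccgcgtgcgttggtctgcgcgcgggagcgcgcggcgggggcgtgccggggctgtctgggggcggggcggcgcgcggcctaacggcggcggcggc

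The starts differed in composition. The upstream window of Cbfa2t3 was 64% G or C with 9 CpG dinucleotides, while its downstream window was 83.2% with 43 and that of Cbfa2t2 78.4% with 41. Over the 32851 windows of this length in the table, the medians were 52.4% and 6. Letters were searched on both strands. CAGCTG occurred at 2 places of the upstream Cbfa2t3 window, 146 and 104 bases before the start, and in neither of the other windows. It was present in 13% of all windows, and at 2 or more places in 1.26%. The wider E-box CANNTG, which includes CAGCTG, was found at 4 places in the upstream window, at 1 in the downstream window and at 0 in Cbfa2t2, against at least 1 in 66.2% of all windows. GATA was found at 2 places, 0 and 1 place in the same order, and in 53.6% of all windows. The Runx core TGTGGT was in none of the 3, and in 14% of all. These matches describe letters, and which start each probe set reads is not given in the sources used here.

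Before the values, the libraries: the median signal per array was 6.66 to 6.71 in saline and 6.72 to 6.75 in SAHA, and the median SE of a difference over all genes was 0.077 log2. The cortical projection neuron genes Tbr1 and Slc17a7 lay at 10.1 to 10.3 and 10.4 to 10.6 on the log2 scale in the 6 libraries. Libraries stood apart in sex-linked transcripts. Xist was at 10.9 in saline replicate 1 and at most 4.88 in the others, while the Y-linked Uty was at 6.74 in SAHA replicate 3 and between 7.93 and 8.24 in the others. Results are therefore also given without these 2 libraries. Between SAHA and saline, limma after Benjamini-Hochberg adjustment at 0.05 called 0 of all genes (0%). A variance trend in limma gave 28 calls (0.14%), and its robust form gave 31 (0.155%). At an unadjusted p under 0.05 lay 3472 genes (17.4%), 11.9% higher and 5.56% lower in SAHA.

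Cbfa2t3 had a higher signal in SAHA than in saline. In the saline libraries its log2 signal was 7.26, 7.16 and 7.19, and in the SAHA libraries 7.70, 7.59 and 7.64. All SAHA values lay above all saline values, with a gap of 0.33 between the nearest. The group levels (mean ± SD, n = 3) were 7.20 ± 0.050 in saline and 7.64 ± 0.058 in SAHA, a log2 difference of 0.44 (SE 0.062), or 1.36-fold. Among all genes 176 differed by more in either direction, or 0.883%. With saline replicate 1 and SAHA replicate 3 left out, the difference was 0.47. In bulk tissue, a change in the number of cells that express a gene and a change in RNA per cell cannot be told apart.

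The other probe set of Cbfa2t3 gave a different picture. Its log2 signal was 6.91, 6.97 and 6.40 in saline and 6.90, 6.79 and 7.07 in SAHA. The groups overlapped: saline replicates 1 and 2 lay inside the SAHA range, and saline replicate 3 was the lowest of the 6. The log2 difference was 0.16 (SE 0.15), and it was -0.017 without saline replicate 3. Saline values spanned 0.57 in this probe set and 0.097 in the brighter one. Both probe sets are paired with the same number of curated RefSeq transcripts, 3, and the files do not say which exons each reads. With the mean of its probe sets the difference of Cbfa2t3 was 0.30 (SE 0.092).

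**Figure D1:**
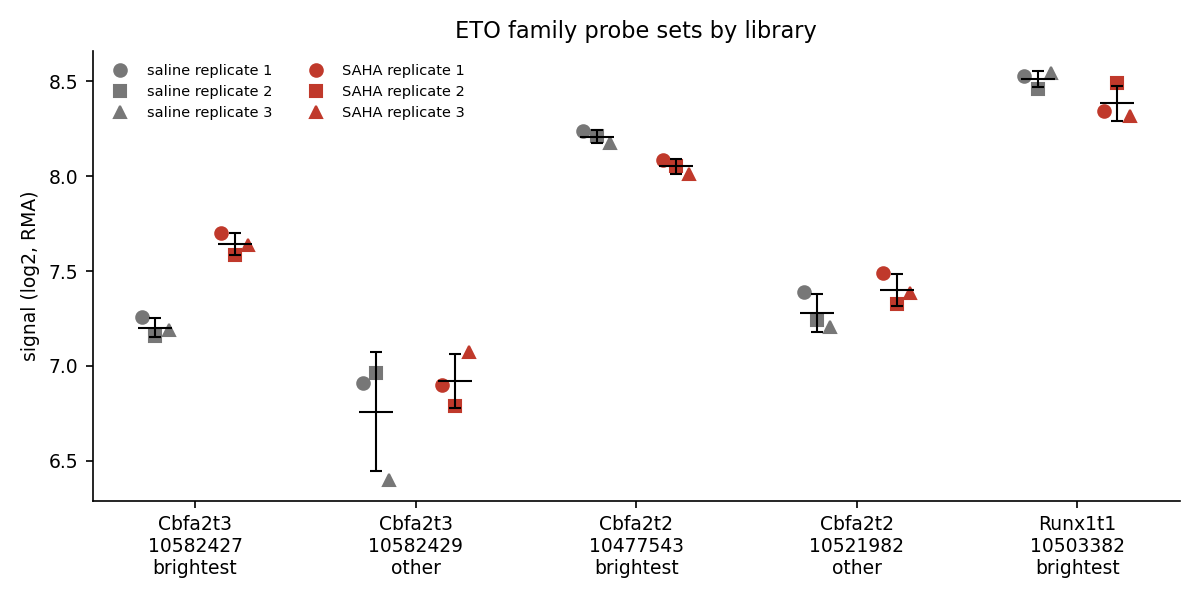
Log2 signal (vertical axis) of the 5 ETO family probe sets in each library, saline in grey and SAHA in red, with marker shape for the replicate number and bars for mean ± SD (n = 3). The brightest Cbfa2t3 probe set separates the groups by 0.33, its other probe set does not separate them, and the Cbfa2t2 probe sets differ in opposite directions.

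Cbfa2t2 was slightly lower in SAHA in its brightest probe set. The log2 signal was 8.24, 8.21 and 8.17 in saline and 8.09, 8.06 and 8.01 in SAHA. The groups did not overlap, with a gap of 0.087. The levels were 8.21 ± 0.032 and 8.05 ± 0.038 (SD, n = 3), which gives a log2 difference of -0.16 (SE 0.057), with 27% of all genes differing by more in either direction. With the 2 libraries that stood apart left out, it was -0.12.

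The dimmer Cbfa2t2 probe set pointed the other way. Its log2 signal was 7.39, 7.24 and 7.20 in saline and 7.49, 7.33 and 7.38 in SAHA, a difference of 0.12 (SE 0.075) with overlapping groups. Saline replicate 1 lay inside the SAHA range. The mean of both probe sets differed by -0.017 (SE 0.063), so the sign and size for Cbfa2t2 rest on the probe set taken. RefSeq also holds a pseudogene of this gene, Cbfa2t2-ps1, on another chromosome, and whether a probe set reads it was not tested. Among the 999 genes with more than 1 probe set, 331 (33.1%) had probe sets of opposite sign.

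Runx1t1, the founding member of the family, had 1 probe set. Its log2 signal was 8.53, 8.46 and 8.54 in saline and 8.35, 8.49 and 8.32 in SAHA. The groups overlapped, since SAHA replicate 2 lay above saline replicate 2, while the other SAHA libraries lay below every saline library. The levels were 8.51 ± 0.043 and 8.39 ± 0.093 (SD, n = 3), a log2 difference of -0.13 (SE 0.068). Dropping SAHA replicate 2 gave -0.18, and dropping the 2 libraries that stood apart gave -0.085. By their brightest probe sets, 2 of the 3 family members had groups that did not overlap, as did 23.9% of all genes. These were 1 with SAHA above, beside 13.6% of all genes, and 1 with SAHA below, beside 10.4%. Counted by probe set it was 2 of 5, beside 24.2% of all probe sets paired with 1 gene.

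The size and sign of the median difference followed the signal in these arrays, and this touches the lower members more than Cbfa2t3. In deciles 2 to 5 (signal 4.86 to 6.94), 68.1% to 77.3% of genes were higher in SAHA, with medians of 0.062 to 0.11. In deciles 8 to 10 (signal from 7.89), 17.4% to 30.9% were higher, with medians of -0.059 to -0.050. The lists and chromosomal neighbours given below were not set against genes of like signal. Their counts of higher or lower genes may reflect this trend in part. Genes in the same decile of signal as Cbfa2t3 had a median difference of -0.024, and 42.3% of them were higher in SAHA. Those in the decile of Cbfa2t2 and Runx1t1 had a median of -0.050, and 30.9% were higher. Set against these medians, Cbfa2t3 was at 0.47, Cbfa2t2 at -0.11 and Runx1t1 at -0.076. After quantile normalization the differences were 0.45, -0.11 and -0.074, and after cyclic loess normalization 0.44, -0.11 and -0.073.

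**Figure D2:**
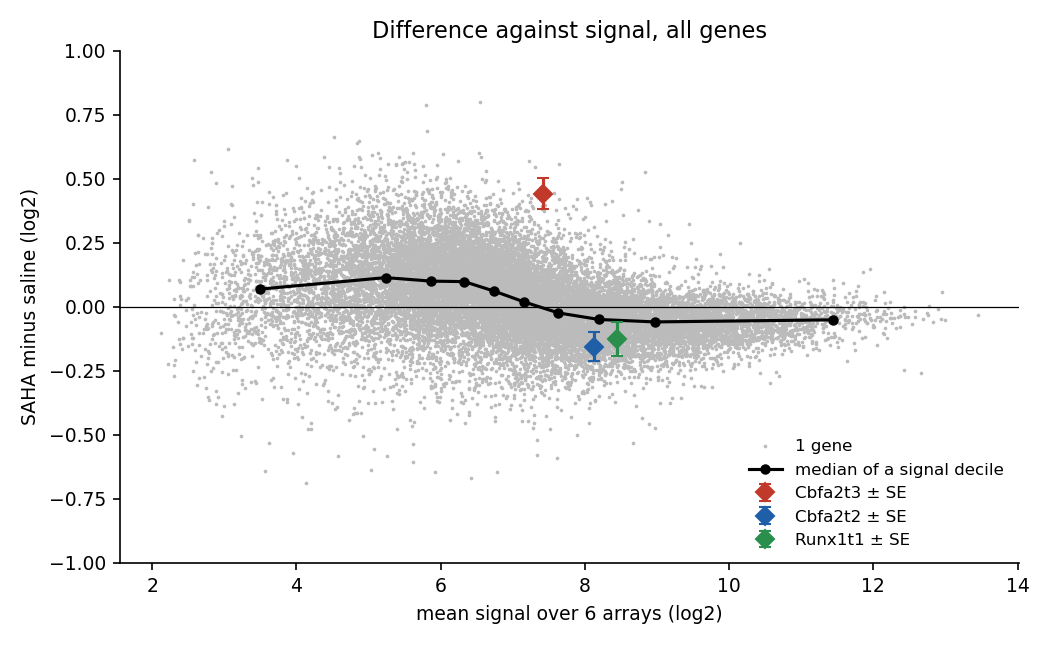
Difference of SAHA minus saline in log2 (vertical axis) against mean log2 signal over 6 arrays (horizontal axis), with a grey point per gene, black points for the median of each decile of signal drawn at the middle of its range, and diamonds for the ETO family ± SE. Cbfa2t3 lies at 0.44 where its decile has a median of -0.024, and the other members lie nearer theirs, while 1 gene beyond 1 log2 is not drawn.

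**Figure D3:**
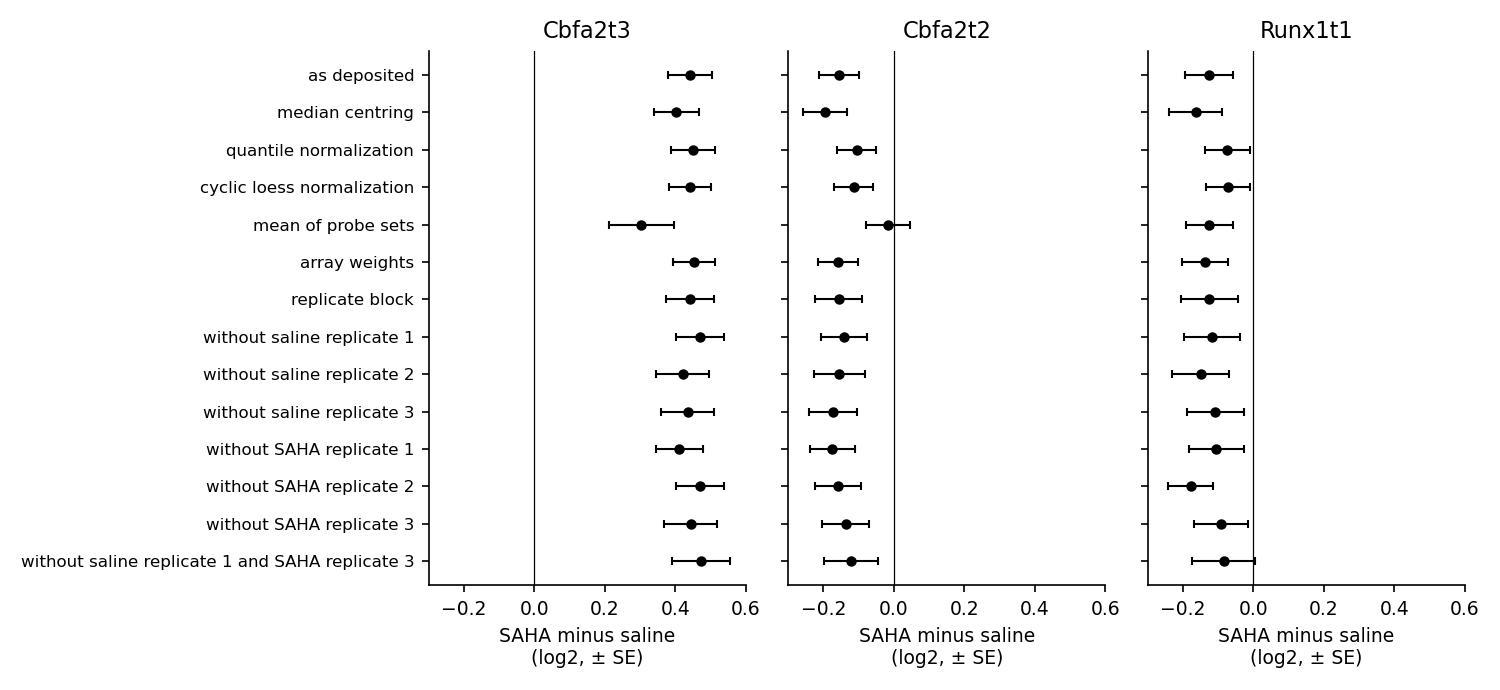
Difference of SAHA minus saline in log2 ± SE (horizontal axis, the same range in each panel) for each family member under 14 treatments of the data, the deposited values first. Cbfa2t3 stays between 0.30 and 0.47, Cbfa2t2 comes to -0.017 with the mean of its probe sets, and Runx1t1 lies between -0.18 and -0.073.

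Markers of other cell types were read beside these values, since Cbfa2t3 is known from blood cells. Of 6 red cell and neutrophil markers 5 were measured, and all 5 were higher in SAHA, with a summed linear signal of 305 to 331 in saline and 349 to 381 in SAHA. The red cell anion exchanger Slc4a1 differed by 0.38 (SE 0.084), and the neutrophil genes S100a8 and S100a9 by 0.46 (SE 0.11) and 0.21 (SE 0.067), at limma adjusted p of 0.124, 0.138 and 0.194. The signals of S100a8 and S100a9 were low, at 4.61 to 5.34 and 5.17 to 5.51. By mean signal both lie in decile 2, where 77.3% of genes were higher in SAHA. The other measured markers, Alas2 and Ngp, differed by only 0.044 (SE 0.090) and 0.0068 (SE 0.068), with overlapping groups. They were at -0.075 and -0.051 with the 2 libraries that stood apart left out. The list median was 0.21, and 0.096 after quantile normalization, where 4 of the 5 were higher and S100a9 was at 0.096. With the 2 libraries that stood apart left out, 3 of the 5 were higher, with a median of 0.15. Endothelial markers, 5 of 6 measured and 4 higher, summed to 812 to 849 in saline and 871 to 921 in SAHA. Their median was 0.055. Slco1a4 differed by 0.23 (SE 0.067) without overlap and Cldn5 by 0.19 (SE 0.081) with overlap, at limma adjusted p of 0.174 and 0.287. Flt1, Tek and Pecam1 were at 0.052, 0.055 and -0.021, with overlapping groups. With the 2 libraries that stood apart left out, 3 of the 5 endothelial markers were higher, at a median of 0.027. Of the choroid plexus and ependyma markers 5 of 6 were higher, with a median of 0.14, which came to 0.038 under quantile normalization. Their sums overlapped between the groups, while the water channel gene Aqp1 differed by 0.42 (SE 0.068) without overlap, at a limma adjusted p of 0.116. The choroid plexus gene Ttr, the 1 marker of this list that was lower, differed by -0.29 (SE 0.34) with overlapping groups. The part of these 3 lists in the Cbfa2t3 difference was not tested.

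For excitatory neuron, interneuron, striatal neuron, astrocyte, oligodendrocyte, oligodendrocyte precursor and microglia markers, the summed signal overlapped between the groups over the 6 libraries. With the 2 libraries that stood apart left out, the sums separated for oligodendrocyte, striatal neuron and microglia markers, each lower in SAHA. With 2 libraries left per group, separation is a weak criterion, and its share over all genes was not computed. The striatal neuron sums were 2171 and 2813 in saline and 2153 and 1979 in SAHA, a narrow gap. The oligodendrocyte sums were then 2722 and 2739 in saline and 2385 and 2342 in SAHA, and all 5 measured genes were lower, at a median of -0.23 in place of -0.047, which over the 6 libraries was 0.014 under quantile normalization. Striatal neuron markers had a median of -0.22 in place of -0.091, and microglia markers -0.013 in place of -0.034. The part of these lists in the family's differences was not tested.

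The genes that the ETO family works with were read from 8 lists of DNA-binding partners, corepressors and target pathways. Of 78 genes 73 were measured, and 0 were called by limma over all genes, with or without a variance trend. At an unadjusted p under 0.05 there were 13, or 17.8% beside 17.4% of all genes, 8 of them higher and 5 lower in SAHA. After quantile normalization there were 8, or 11% beside 13.2% of all genes. With the 2 libraries that stood apart left out there were 3, or 4.11% beside 10.4%. Groups did not overlap for 21, or 28.8% beside 23.9% of all genes. The median difference was 0.015, where all genes had 0.011.

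The DNA-binding factors that recruit ETO proteins had 11 of 16 genes higher and a median of 0.064, or 10 of 16 after quantile normalization. Gata1, the erythroid factor of the complex that holds Cbfa2t3, differed by 0.29 (SE 0.12), and Lyl1, a haematopoietic relative of Tal1, by 0.24 (SE 0.078). For both, all SAHA libraries lay above all saline libraries. For Gata1 the separation was narrow, with saline replicate 3 at 6.026 and SAHA replicate 2 at 6.035. After quantile normalization Gata1 was at 0.20 and Lyl1 at 0.22. Prdm14, the germ cell partner of Cbfa2t2, differed by 0.26 (SE 0.11), with overlapping groups. None passed limma, where adjusted p was 0.283, 0.194 and 0.266. These 3 genes were the only ones of the list at an unadjusted p under 0.05, or 18.8% beside 17.4% of all genes. With the 2 libraries that stood apart left out, 8 of 16 were higher and the median was 0.032.

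The corepressors that ETO proteins bring in had 10 of 12 genes measured, all 10 lower in the deposited values, with a median of -0.036. Under quantile normalization 6 of the 10 were higher and the median was 0.017, and under cyclic loess also 6, at 0.013, so the direction of the list turns with the scaling. Sin3a, the scaffold of the Sin3 deacetylase complex, differed by -0.18 (SE 0.064) with groups that did not overlap, at a limma adjusted p of 0.220. Its difference was -0.13 after quantile normalization. Hdac3, the deacetylase of the NCoR complex, differed by -0.088 (SE 0.057), and Hdac2 by -0.089 (SE 0.071), at limma adjusted p of 0.440 and 0.536.

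Ldb1 and its partners, which bridge Tal1 complexes between enhancers and promoters, had 5 of 8 genes lower and a median of -0.037. The median was 0.0088 under quantile normalization, -0.00051 under cyclic loess and -0.071 with the 2 libraries that stood apart left out. Ssbp2, a stabiliser of Ldb1, differed by -0.14 (SE 0.055) and Ldb2, a relative of Ldb1, by -0.13 (SE 0.063), while Ssbp4 differed by 0.13 (SE 0.063). Their groups did not overlap, and their limma adjusted p lay between 0.252 and 0.332. Of the Runx factors, the DNA-binding part of the leukaemia fusion, 3 of 4 genes were measured. Runx1 differed by -0.035 (SE 0.065), its dimer partner Cbfb by -0.031 (SE 0.066), and Runx3 by 0.078 (SE 0.11), with overlapping groups for each and limma adjusted p from 0.733 to 0.830.

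Notch signalling, whose effector Rbpj binds ETO proteins, had 10 of 12 genes higher and a median of 0.11. After quantile normalization 7 of 12 were higher, with a median of 0.057. Hes5, a Notch-induced repressor of neural progenitors and astrocytes, was at 7.53, 7.64 and 7.55 in saline and 7.79, 7.76 and 7.87 in SAHA. Every SAHA library lay above every saline library, a difference of 0.23 (SE 0.063), at a limma adjusted p of 0.157. The related repressors Hes1 and Heyl differed by 0.24 (SE 0.087) and 0.19 (SE 0.065), again without overlap, at limma adjusted p of 0.232 and 0.212. The other 2 related genes were lower. Hey1 differed by -0.088 (SE 0.058), with every SAHA library below every saline library, at a limma adjusted p of 0.453. Hey2 differed by -0.21, with overlapping groups. With the 2 libraries that stood apart left out, 7 of the 12 were higher, with a median of 0.081.

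Wnt target genes, a pathway whose factor Tcf7l2 binds ETO proteins, had 9 of 10 genes measured, 7 of them higher, and a median of 0.12. After quantile normalization 6 of 9 were higher, with a median of 0.081. The secreted Wnt inhibitor Notum differed by 0.24 (SE 0.084), the intracellular inhibitor Nkd1 by 0.15 (SE 0.063), and the receptor-directed ubiquitin ligase Rnf43 by 0.18 (SE 0.086). Groups overlapped for Rnf43 only among these 3, and limma adjusted p was 0.220, 0.266 and 0.332.

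The neural bHLH factors and Id proteins, which pair with or sequester E proteins, had 9 of 10 genes measured, 6 of them higher, and a median of 0.016. After quantile normalization 4 of 9 were higher, at a median of -0.033, and with the 2 libraries that stood apart left out the median was -0.073. Neurod6, a factor of cortical pyramidal neurons, differed by -0.23 (SE 0.081), its relative Neurod1 by -0.12 (SE 0.058) and Neurod2 by 0.10 (SE 0.054). All 3 had groups that did not overlap and limma adjusted p of 0.226, 0.333 and 0.367. Of 6 regulators of glycolysis and hypoxia, some of which Cbfa2t3 represses in blood cancer lines, 4 were lower, with a median of -0.045, which came to -0.035 under quantile normalization and -0.030 with the 2 libraries that stood apart left out. At an unadjusted p under 0.05 in limma were 2 of them, or 33.3% beside 17.4% of all genes. Under these alternatives there were 0, beside 13.2% and 10.4% of all genes. Pfkfb3, which makes the activator of phosphofructokinase, differed by -0.15 (SE 0.057), the hypoxia factor Hif1a by -0.17 (SE 0.075) and the kinase Pdk1 by -0.060 (SE 0.082). After quantile normalization Hif1a was at -0.10. Groups overlapped for Pdk1, and limma adjusted p was 0.247, 0.283 and 0.727.

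**Figure D4:**
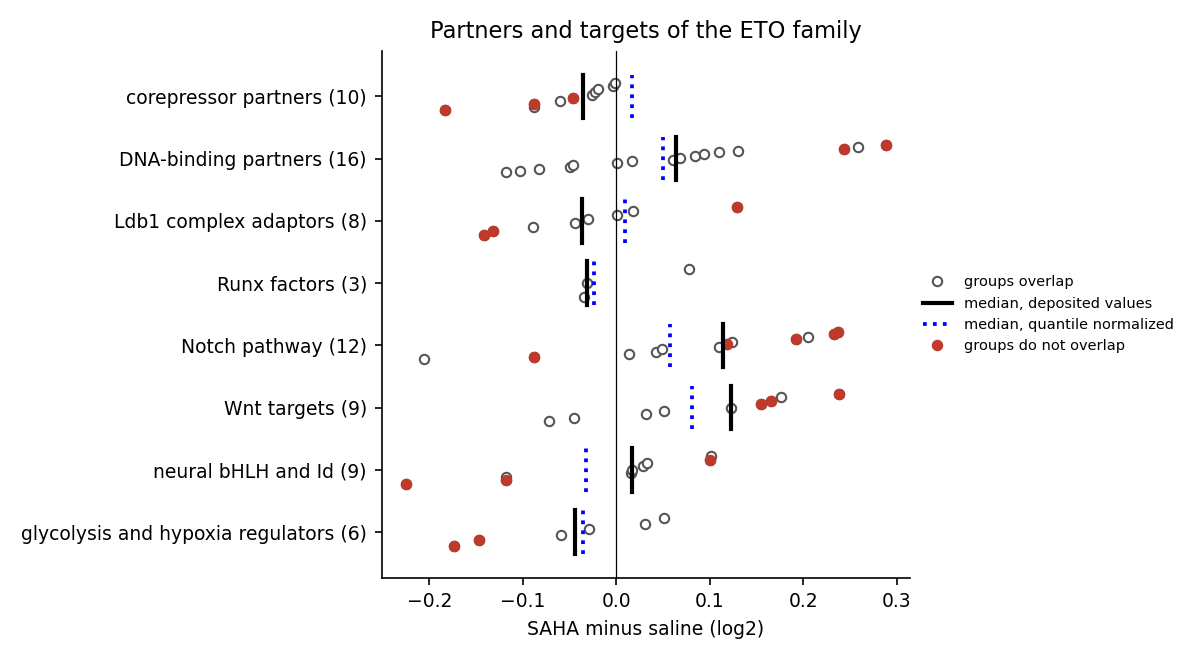
Difference of SAHA minus saline in log2 (horizontal axis) for each gene of the 8 partner and target lists (rows, with the number measured), filled in red where the groups do not overlap. Bars mark the list median in the deposited values and dotted bars after quantile normalization, and the corepressor median moves from -0.036 to 0.017 between them.

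Chromosomal neighbours were read beside each member. Cbfa2t3 lies on chromosome 8. Of its 4 nearest measured genes, Gm10612, a predicted gene next to it, was at 6.17, 6.40 and 6.55 in saline and 6.64, 6.72 and 6.89 in SAHA. Its groups did not overlap, and it differed by 0.38 (SE 0.11), or by 0.20 with the 2 libraries that stood apart left out. Its limma adjusted p was 0.171. The acyl-CoA synthetase gene Acsf3 differed by 0.16 (SE 0.073), the poly(A)-binding gene Pabpn1l by 0.21 (SE 0.084) and the trafficking gene Trappc2l by -0.031 (SE 0.057), at limma adjusted p of 0.296, 0.257 and 0.798. After quantile normalization Acsf3 was at 0.072, Pabpn1l at 0.12 and Trappc2l at 0.028, with its sign turned.

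Around Cbfa2t2 on chromosome 2, the calcium-binding protein gene Necab3 differed by 0.093 (SE 0.057), with groups that did not overlap. The other neighbours Bpifb9a, Bpifb9b and 1700003F12Rik differed by 0.22 (SE 0.12), 0.012 (SE 0.11) and 0.17 (SE 0.15), with overlapping groups. The Bpifb9b difference was small beside its SE, and it was at -0.086 after quantile normalization. In the deposited values the 4 neighbours were thus opposite in sign to the brightest Cbfa2t2 probe set and alike in sign to the dimmer one. Around Runx1t1 on chromosome 4, all 4 neighbours were lower in SAHA, in the deposited values and after quantile normalization. Cibar1, a cilium gene, differed by -0.23 (SE 0.067) and Triqk by -0.14 (SE 0.089). The anion exchanger Slc26a7 differed by -0.18 (SE 0.070) and Lrrc69 by -0.28 (SE 0.091). Groups overlapped for Triqk alone among these, and limma adjusted p was 0.178, 0.430, 0.253 and 0.199.

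**Figure D5:**
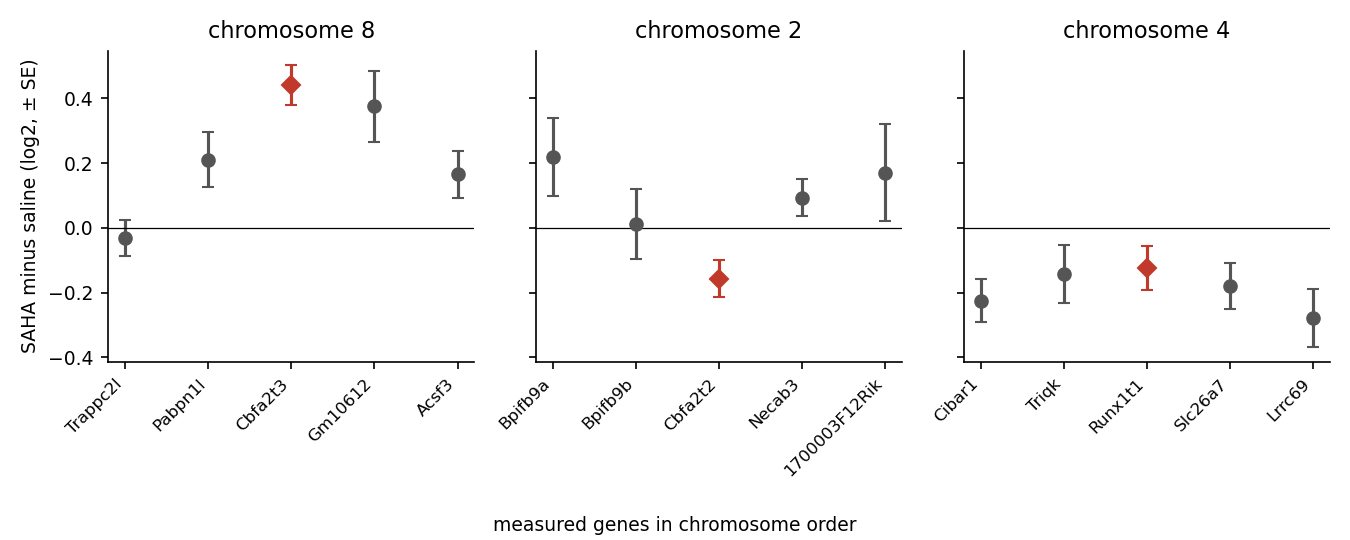
Difference of SAHA minus saline in log2 ± SE (vertical axis) for each family member (red diamond) and its 2 nearest measured genes on either side in chromosome order (grey). Around Runx1t1 the 4 neighbours lie between -0.28 and -0.14, and around Cbfa2t3 they lie between -0.031 and 0.38.

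The genes most like each member over the 6 libraries were found by the root mean square difference between log2 values centred on each gene's mean, over 9663 candidate genes in the brighter part of the array (mean signal of 6.94 or more). Cbfa2t3, whose own SD over the libraries was 0.25, was nearest to Tbkbp1, an adaptor of the kinase Tbk1, at 0.046. Next came the postsynaptic scaffold Shank2 at 0.057, the meiotic kinase Aurkc at 0.058, the zinc finger gene Zfp296 at 0.061 and the receptor gene Gpr31b at 0.063. Their differences between SAHA and saline were 0.38, 0.36, 0.42, 0.33 and 0.38, each with groups that did not overlap. The measure includes the difference between the groups, so genes of like difference come first.

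For Cbfa2t2, with an SD of 0.091, the nearest were Ykt6, a membrane fusion protein, at 0.0086, the ribosomal protein gene Rps15 at 0.013 and Ddt, a tautomerase, at 0.015. For Runx1t1, with an SD of 0.094, they were the ATP synthase assembly factor Atpaf1 at 0.017 and the deadenylase subunit Cnot6 at 0.019. Next was Pafah1b2, a subunit of an acetylhydrolase, at 0.020. In Atpaf1, Cnot6 and Pafah1b2, as in Runx1t1, SAHA replicate 2 was the highest of the SAHA libraries. The measure compares all 6 libraries, so this likeness follows from how the genes were picked.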

How the data were processed

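RNA of 6 frontal cortex libraries was measured on whole-transcript arrays. The authors deposited log2 signals (the scale is read from their range), made with Affymetrix Expression Console and RMA, per the submitters' processing notes, which name no version. Of 35556 probe sets, 21789 pair with 1 gene symbol in the platform annotation, 1621 with several and 12146 with none. The brightest probe set stood for each of 19938 genes, of which 19855 matched RefSeq (GRCm38.p6) by Entrez identifier, changing 0 symbols. RefSeq gave names, chromosomes and gene order only. Group and replicate come from the titles.

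Groups were compared in R 4.3.3 by the moderated linear model of limma 3.58.1 (lmFit, eBayes), two-sided, without a block or filter, adjusted over all genes by Benjamini-Hochberg at 0.05. The fit was tested on simulated data. Figures used matplotlib 3.10.9. The family members and the gene lists were chosen with earlier results of these data known. Named genes are the family members, the 3 of smallest p in each partner and target list, 2 measured neighbours on either side, and the 5 or 3 nearest patterns. Other genes named (Tbr1, Slc17a7, the sex-linked, blood and endothelial genes, Aqp1, Ttr, Hey1, Hey2) were chosen after their values were seen. Intensity files were not used here, and scan batches are not given in the sources used here.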

Additional observations from a re-analysis of the deposited data

How the results depend on the processing

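Over 13 alternatives each, Cbfa2t3 was higher in SAHA in 13, at 0.30 to 0.47 log2, and Cbfa2t2 and Runx1t1 were lower in 13, at -0.20 to -0.017 and -0.18 to -0.073. These take the brightest probe set or the mean, and the dimmer Cbfa2t2 probe set was higher in SAHA under each alternative run on it, at 0.077 to 0.19. For Cbfa2t3 and Cbfa2t2 the choice of probe set moved values most: averaging the probe sets put Cbfa2t3 at 0.30 and Cbfa2t2 at -0.017. Cbfa2t2 was also at -0.20 after median centring, -0.11 after quantile and -0.11 after cyclic loess normalization. Leaving out 1 library at a time gave 0.41 to 0.47 for Cbfa2t3, -0.17 to -0.14 for Cbfa2t2 and -0.18 to -0.092 for Runx1t1, and limma called 0 genes each time. With the replicate number as a block the differences stayed at 0.44 (SE 0.067), -0.16 (SE 0.067) and -0.13 (SE 0.080), and 0 genes were called. Deviations of same-numbered libraries correlated at -0.10, -0.079 and 0.015 over genes. These values show no deviation shared by number, but they cannot tell whether the samples were paired. Over all genes, limma called 27 when dim genes (under the median signal) were left out, 28 under a variance trend and 31 when that trend was robust, and 1 was called by a two-sample test with equal variances. Of the partner and target genes 0 were called in each of these. With 3 arrays per group, the number of arrays limits the precision.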
